A study of Drosophila melanogaster with 20 samples.

Results

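The transcripts described here are those whose level in the fly head differed in opposite directions when RNA interference against ATM was driven in glia and when it was driven in neurons. Members were chosen on measured values: the group mean of log2 RMA levels had to differ by at least 0.5 between Repo-ATMi and Repo-GAL4, and by at least 0.5 with the opposite sign between Elav-ATMi and Elav-GAL4. The arrays of the experimental and control genotypes could not overlap in either comparison, and the difference between ATM8 homozygotes and ATM8/+ heterozygotes had to be under 0.6. Of 15473 transcripts, 36 met this rule. In 34 of them the level was lower with Repo-ATMi and higher with Elav-ATMi, and in 2 it was higher with Repo-ATMi and lower with Elav-ATMi. The differences and the separation of arrays in the Repo and Elav comparisons are therefore a description of how the members were chosen and not a result.

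Total RNA of adult Drosophila melanogaster heads was measured on 20 single-colour arrays, 1 per sample, for 8 genotypes. The ATM8 homozygotes and ATM8/+ heterozygotes (2 samples each) were in the pp e1 background, were reared at 18°C and then held at 25°C for 3 days. The 6 other genotypes were in the w1118 background and were kept at 25°C throughout. The glial comparison set Repo-GAL4/UAS-RNAiATM flies (Repo-ATMi, 2 samples) against Repo-GAL4/+ flies (2 samples). One neuronal comparison set flies with Elav-GAL4/+ on chromosome 2 and UAS-RNAiATM/+ on chromosome 3 (Elav-ATMi, 4 samples) against Elav-GAL4/+ (4 samples). The other neuronal comparison set flies with ElavC155-GAL4/+ on the X chromosome and UAS-RNAiATM/+ (ElavC155-ATMi, 2 samples) against ElavC155-GAL4/+ (2 samples). All flies were collected at 0 to 3 days after eclosion and held for 3 days, and an age of 4 to 6 days is given for the driver genotypes. The controls carried the driver without the RNA interference transgene, so that presence of the transgene chromosome and RNA interference cannot be told apart in any of these comparisons.

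ATM is a protein kinase that signals DNA double-strand breaks. In the GAL4/UAS system, the yeast transcription factor GAL4 is made under a tissue-specific promoter and switches on any transgene placed behind its binding sites, here a hairpin RNA against the ATM messenger. The repo gene encodes a homeodomain protein of glia and elav an RNA-binding protein of neurons, and their promoters are used to direct GAL4 to these cells. The comparisons differ in the cell type in which ATM is targeted. RNA came from whole heads, so which cells responded cannot be seen. Heads also hold fat body, muscle and cuticle, and in such bulk samples fewer cells of a type and less RNA per cell cannot be told apart.

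The rows of the table are FlyBase transcript identifiers without gene names. The gene table used here tied 0 of the 36 members to a gene, so the members are given by identifier and no function is attached to them. None of the 53 symbols in the lists of glial, neuronal, fat body and photoreceptor markers, antimicrobial peptides, Imd pathway and ATM pathway genes had a row tied to a single gene (0 of 53). Expression of the knockdown target (tefu in the fly) and the marker check of the head tissue are therefore not analysed here. The arrays fell into 2 sets of values, with medians of 10.45 to 10.63 in the ATM8 and Repo arrays and 10.84 to 10.93 in the Elav and ElavC155 arrays. Each comparison lay within 1 set, while levels of Repo and Elav genotypes are set across them. RMA levels carry no detection flag, so the fold of a transcript that is dim in 1 genotype has no measured floor.

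Each condition of the rule was met by far more transcripts than both together. The Repo condition was met in the lower direction by 906 transcripts (5.86% of all) and in the higher direction by 1113 (7.19%). The Elav condition was met in the higher direction by 177 (1.14%) and in the lower direction by 148 (0.957%). Before the ATM8 condition, 38 transcripts were lower with Repo-ATMi and higher with Elav-ATMi, which is 4.19% of the first list and 21.5% of the second. In the opposite arrangement there were 2, or 0.18% and 1.35%. For scale, 72 transcripts were higher in both comparisons and 53 lower in both by the same thresholds.

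**Figure D1:**
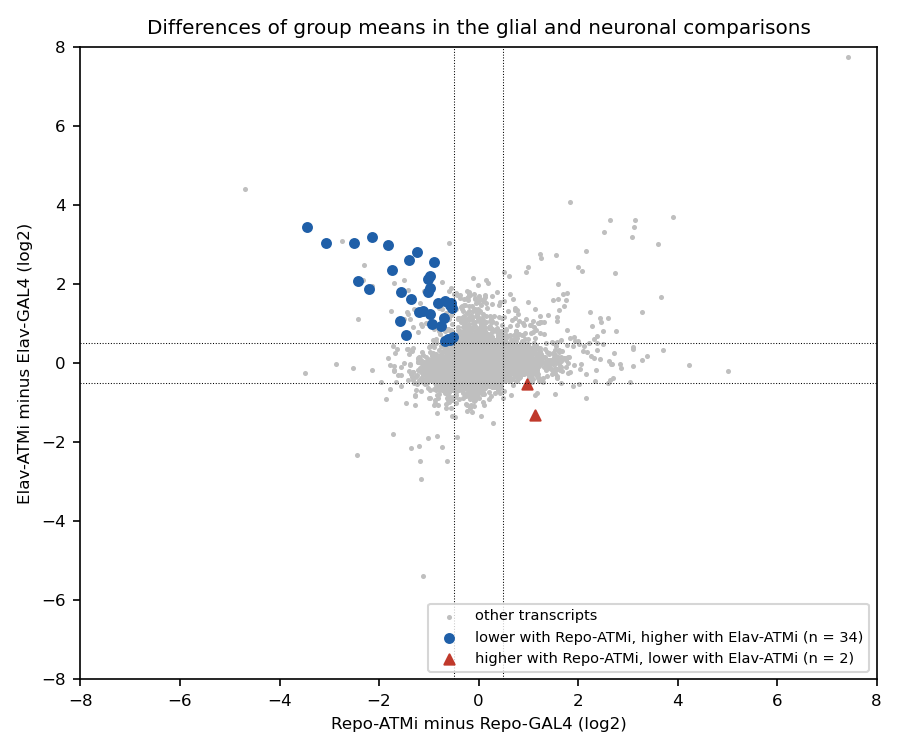
Each point is a transcript, with the difference of group means (log2) between Repo-ATMi and Repo-GAL4 on the horizontal axis and between Elav-ATMi and Elav-GAL4 on the vertical axis; dotted lines mark 0.5. The 34 blue circles in the upper left reach 3.44 below 0 for Repo and 3.45 above 0 for Elav, and the 2 red triangles in the lower right are FBtr0079798 (1.13 and -1.31) and FBtr0082844 (0.98 and -0.52, near the Elav threshold); grey points beyond the dotted lines failed another condition of the rule.

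Most of the 34 transcripts that were lower with Repo-ATMi and higher with Elav-ATMi were dim in 6 of the 8 genotypes and brighter in Repo-GAL4 controls and in Elav-ATMi flies. Exceptions included FBtr0100320, with group means of 9.59 to 11.93, and FBtr0085956, with group means of 8.05 or more. The median of their group means was 7.62 in Repo-GAL4 and 8.12 in Elav-ATMi. It was 6.46 in Repo-ATMi, 6.08 in Elav-GAL4, 6.11 in ElavC155-GAL4, 6.09 in ElavC155-ATMi, 6.21 in ATM8/+ and 6.08 in ATM8. In every array of ElavC155-GAL4, 28 of the 34 lay under the 25th percentile of that array's transcripts, which was 7.48 to 7.91 on the different arrays. The same held for 28 in ElavC155-ATMi, 28 in ATM8/+, 26 in ATM8, 26 in Repo-ATMi and 26 in Elav-GAL4. It held for only 10 in Repo-GAL4 and 7 in Elav-ATMi.

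Repo-GAL4 and Elav-ATMi were the 2 highest of the 8 genotypes for 28 of the 34 transcripts, against 1.47% of all transcripts. The members were picked for higher values in exactly these 2 genotypes relative to their partners, so this count follows largely from the choice and nothing is read from it. Elav-ATMi was the highest of all genotypes for 18, against 15.3% of all transcripts, and Repo-GAL4 for 15, against 7.18%. These counts follow largely from the choice as well. The remaining transcript, FBtr0100320, was highest in ElavC155-ATMi (11.93). The level in Elav-ATMi minus that in Repo-GAL4 had a median of 0.16 and ran from -1.21 to 1.57.

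**Figure D2:**
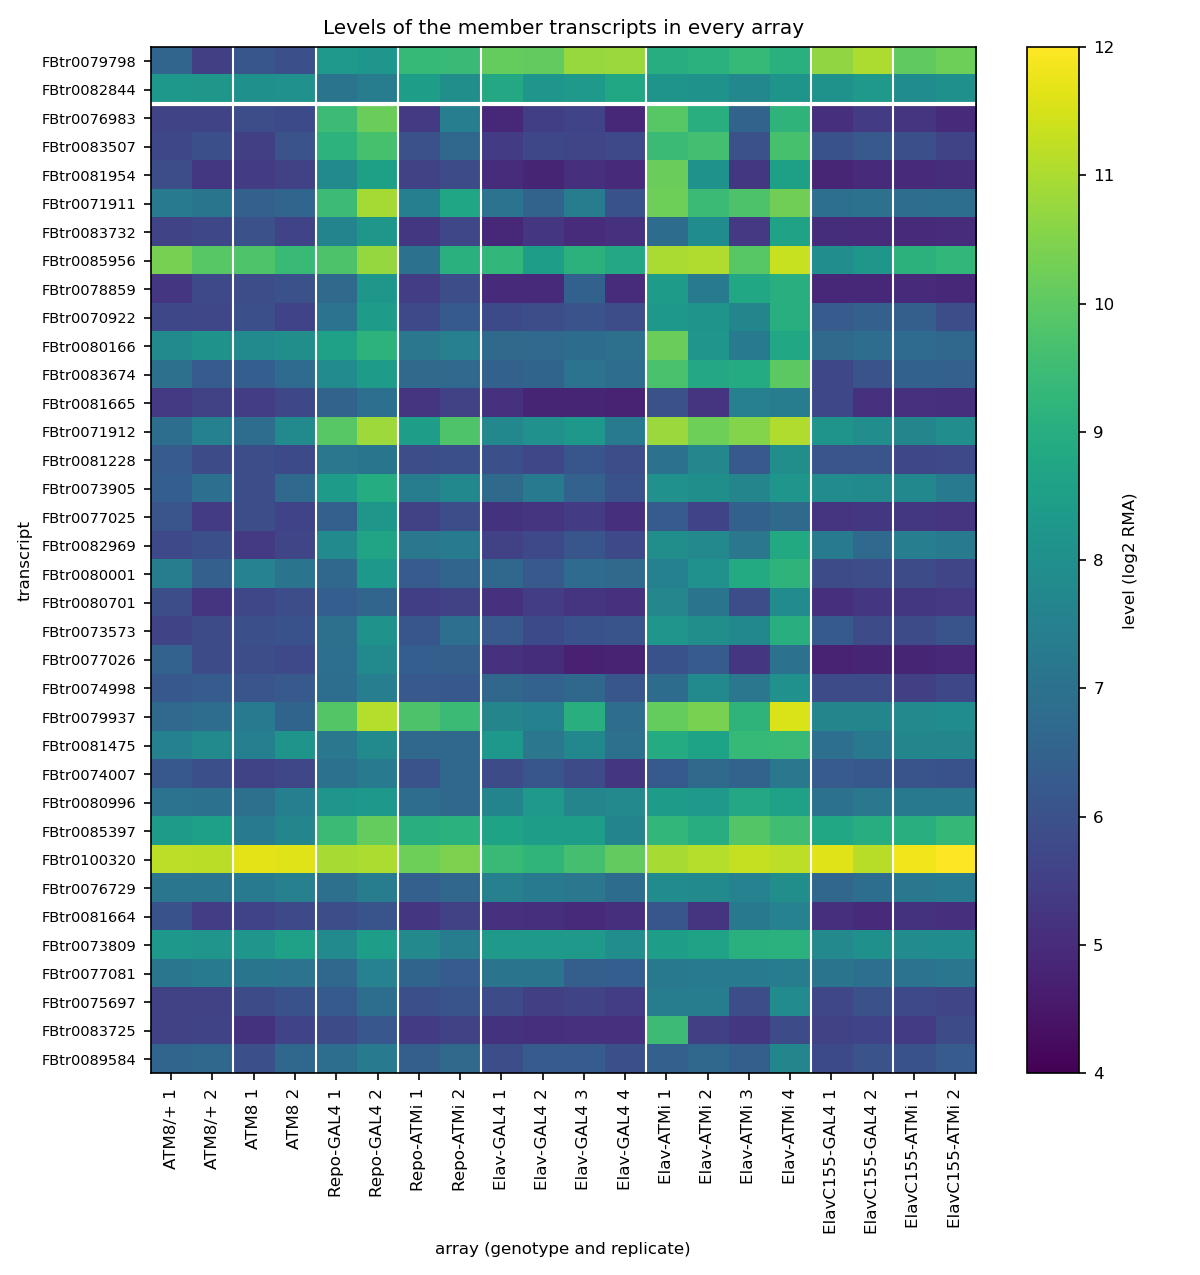
Level (log2 RMA, colour) of the 36 members (rows) in each of the 20 arrays (columns, grouped by genotype). The 2 rows above the white line were higher with Repo-ATMi and lower with Elav-ATMi. Below it, most rows are brighter in most columns of Repo-GAL4 and Elav-ATMi than in the other columns.

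Among the 4 control genotypes, levels of the 34 transcripts were uneven. Repo-GAL4 was the highest control for 29 of them, against 13.1% of all transcripts, and after quantile normalization over all arrays it was the highest for 30. Both Repo-GAL4 arrays lay above every array of the 3 other control genotypes for 25, against 5.04% of all transcripts. The median difference of Repo-GAL4 was 1.44 against Elav-GAL4, 1.31 against ElavC155-GAL4 and 1.20 against ATM8/+, where the medians over all transcripts were -0.30, -0.24 and -0.03. Elav-GAL4 and ElavC155-GAL4 differed from each other by a median of -0.01, against 0.01 over all transcripts. They lay within 0.5 of each other for 24 of the 34 (70.6%), near the 75.0% of all transcripts. Between the ATMi genotypes, Repo-ATMi was below Elav-ATMi for 33 of the 34, against 71.4% of all transcripts, and the median difference was -1.27, against -0.29 over all transcripts. The Repo and Elav arrays chose the members, so these differences carry no test.

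Within some genotypes, 1 array was the highest or lowest for much of the list, most of all in Repo-GAL4. Of the 2 Repo-GAL4 arrays, replicate 2 was the higher for 33 of the 34 transcripts, against 53.1% of all transcripts, with a median level of 8.25 against 7.19 in replicate 1. Of the 2 Repo-ATMi arrays, replicate 2 was the higher for 28, against 47.9% of all transcripts. Among the Elav-ATMi arrays, replicate 4 was the highest for 26, against 30.1% of all, and replicate 3 the lowest for 18, against 23.6%. The array medians of the list in Elav-ATMi were 8.23, 7.97, 7.40 and 8.69 in replicates 1 to 4, while the Elav-GAL4 medians lay between 5.98 and 6.38. The median SD between arrays was 0.60 in Elav-ATMi and 0.44 in Repo-GAL4, against 0.16 and 0.10 over all transcripts, and it was 0.12 in ElavC155-GAL4 and 0.07 in ElavC155-ATMi. Some of these arrays were also left out 1 at a time. This eases the non-overlap condition and shifts a group mean, so the counts do not measure the part of an array in the pattern. Without Repo-GAL4 replicate 2, 26 transcripts met the rule in this direction, 23 of them among the 34. Without Elav-ATMi replicate 3, 51 met it and all 34 were kept, and without Elav-ATMi replicate 4, 35 met it and 32 were kept.

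**Figure D3:**
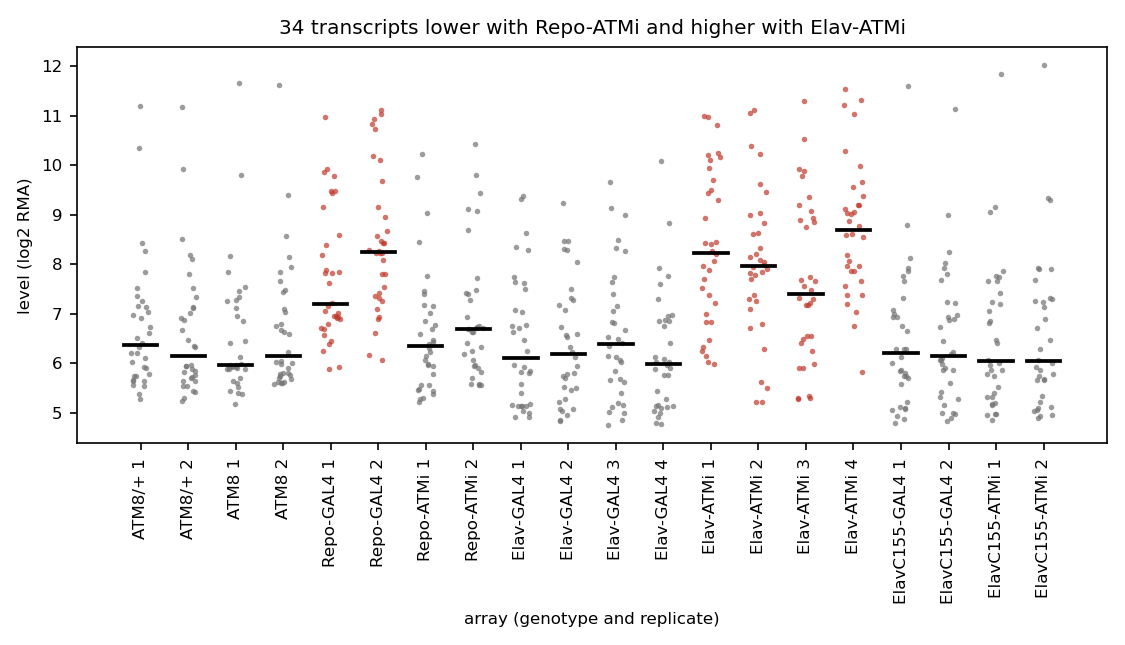
Level (log2 RMA, vertical axis) of the 34 transcripts lower with Repo-ATMi and higher with Elav-ATMi in each array (horizontal axis); points are transcripts and black bars the medians. The medians of the red arrays (Repo-GAL4 and Elav-ATMi) lie between 7.19 and 8.69, and those of the grey arrays between 5.96 and 6.69.

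FBtr0076983 had the widest differences of the 34, with 9.47 and 10.19 in the Repo-GAL4 arrays against 5.37 and 7.41 in Repo-ATMi. In Elav-GAL4 it measured 4.90, 5.49, 5.61 and 4.90, and in Elav-ATMi 9.93, 9.04, 6.54 and 9.19. Elav-ATMi replicate 3 was thus the lowest of its genotype and still 0.93 above the highest Elav-GAL4 array. In ElavC155-GAL4 it measured 5.08 and 5.42, in ElavC155-ATMi 5.20 and 4.95, in ATM8/+ 5.65 and 5.64, and in ATM8 5.88 and 5.79. The group means differed by -3.44 with the Repo driver (10.9-fold lower) and by 3.45 with the Elav driver (11-fold higher). The SD was 1.44 in Repo-ATMi (n = 2) and 1.48 in Elav-ATMi (n = 4). Its Elav-GAL4 levels were not far above the lowest values of those arrays, 4.31 to 4.47, so the Elav fold has no measured floor.

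A set of transcripts shared this profile, with Elav-ATMi replicate 3 near the Elav-GAL4 arrays. FBtr0083507 measured 9.16 and 9.68 in Repo-GAL4, 5.99 and 6.71 in Repo-ATMi, 5.40, 5.73, 5.67 and 5.75 in Elav-GAL4, and 9.44, 9.61, 5.99 and 9.66 in Elav-ATMi. FBtr0081954 measured 7.81 and 8.56, 5.55 and 5.82, then 5.03, 4.82, 5.11 and 4.99, and 10.16, 8.08, 5.29 and 8.54 in the same order of genotypes. In both, replicate 3 of Elav-ATMi lay less than 0.25 above the highest Elav-GAL4 array, while the 3 other Elav-ATMi arrays stood well above it. FBtr0083732 measured 7.62 and 8.22 in Repo-GAL4, 5.30 and 5.69 in Repo-ATMi, 4.91, 5.27, 5.01 and 5.14 in Elav-GAL4, and 6.83, 7.89, 5.33 and 8.61 in Elav-ATMi. In all, replicate 3 lay at least 1 log2 unit under the 3 other Elav-ATMi arrays for 7 of the 34, against 0.181% of all transcripts. Besides these 4, they were FBtr0085956, FBtr0080701 and FBtr0075697, the last pair chosen for mention after their values were seen.

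FBtr0085956 was brighter than that set, at 7.02 or more in every array. It measured 9.77 and 10.73 in Repo-GAL4, 7.02 and 9.07 in Repo-ATMi, 9.31, 8.46, 9.14 and 8.83 in Elav-GAL4, and 10.98, 11.05, 9.92 and 11.32 in Elav-ATMi. It measured 7.91 and 8.24 in ElavC155-GAL4, 9.15 and 9.30 in ElavC155-ATMi, 10.35 and 9.92 in ATM8/+, and 9.80 and 9.40 in ATM8. Among the controls, Repo-GAL4 (10.25) and ATM8/+ (10.13) were near each other, and Elav-GAL4 (8.93) and ElavC155-GAL4 (8.08) were lower. Repo-ATMi, at 8.05 ± 1.45 (SD, n = 2), was level with ElavC155-GAL4.

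In other transcripts all 4 Elav-ATMi arrays were high together. FBtr0071911 measured 10.24, 9.45, 9.78 and 10.28 in Elav-ATMi against 7.04, 6.56, 7.40 and 6.02 in Elav-GAL4, and 9.48 and 10.93 in Repo-GAL4 against 7.45 and 8.69 in Repo-ATMi. It stayed between 6.44 and 7.26 in the 8 ATM8 and ElavC155 arrays. FBtr0071912, whose identifier follows directly, measured 10.81, 10.22, 10.52 and 11.04 in Elav-ATMi against 7.73, 8.04, 8.26 and 7.30 in Elav-GAL4. Its Repo-GAL4 arrays gave 9.91 and 10.83 and its Repo-ATMi arrays 8.45 and 9.80, a gap between the genotypes of only 0.11. The Elav separation of both transcripts was wide (2.06 and 1.95 between the nearest arrays), and the glial one was much narrower for FBtr0071912.

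FBtr0070922 measured 7.05 and 8.43 in Repo-GAL4, 5.78 and 6.25 in Repo-ATMi, 5.79, 5.93, 6.06 and 5.88 in Elav-GAL4, and 8.26, 8.15, 7.68 and 9.01 in Elav-ATMi. FBtr0083674 measured 7.87 and 8.43, 6.77 and 6.73, then 6.47, 6.58, 7.06 and 6.85, and 9.69, 8.82, 8.93 and 9.99 in the same order. These 2 transcripts kept their 4 Elav-ATMi arrays at least 1.62 above the highest Elav-GAL4 array. FBtr0078859 measured 6.78 and 8.22 in Repo-GAL4, 5.45 and 5.89 in Repo-ATMi, 4.99, 4.95, 6.49 and 5.03 in Elav-GAL4, and 8.40, 7.26, 8.75 and 9.05 in Elav-ATMi. Its Elav-GAL4 replicate 3 stood apart from the 3 other Elav-GAL4 arrays. FBtr0080166 measured 8.59 and 9.16, 7.16 and 7.48, then 6.75, 6.73, 6.82 and 6.96, and 10.20, 8.20, 7.30 and 8.77 in the same order, and in the ATM8 arrays it lay between 7.83 and 8.10.

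A further arrangement was seen in FBtr0081665. Its Elav-ATMi arrays gave 5.99, 5.22, 7.48 and 7.38, so that replicates 3 and 4 were the high ones and replicate 2 lay 0.09 above the highest Elav-GAL4 array. The Elav-GAL4 arrays gave 5.13, 4.84, 4.84 and 4.76, the Repo-GAL4 arrays 6.56 and 6.93, and the Repo-ATMi arrays 5.21 and 5.57. The neighbouring identifier FBtr0081664, mentioned because of this neighbourhood, gave 6.14, 5.22, 7.22 and 7.56 in Elav-ATMi and 5.92 and 6.07 in Repo-GAL4 against 5.28 and 5.57 in Repo-ATMi. These 2 were the members in which replicates 3 and 4 of Elav-ATMi both lay at least 1 log2 unit above replicates 1 and 2 (2 of 34, against 0.123% of all transcripts). The members held 3 pairs of consecutive identifiers in all, the third being FBtr0077025 and FBtr0077026. FBtr0083725, singled out after its values were seen, was high in 1 Elav-ATMi array only: 9.49 in replicate 1, against 5.50, 5.29 and 5.82 in the others and 5.08 to 5.16 in Elav-GAL4.

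**Figure D4:**
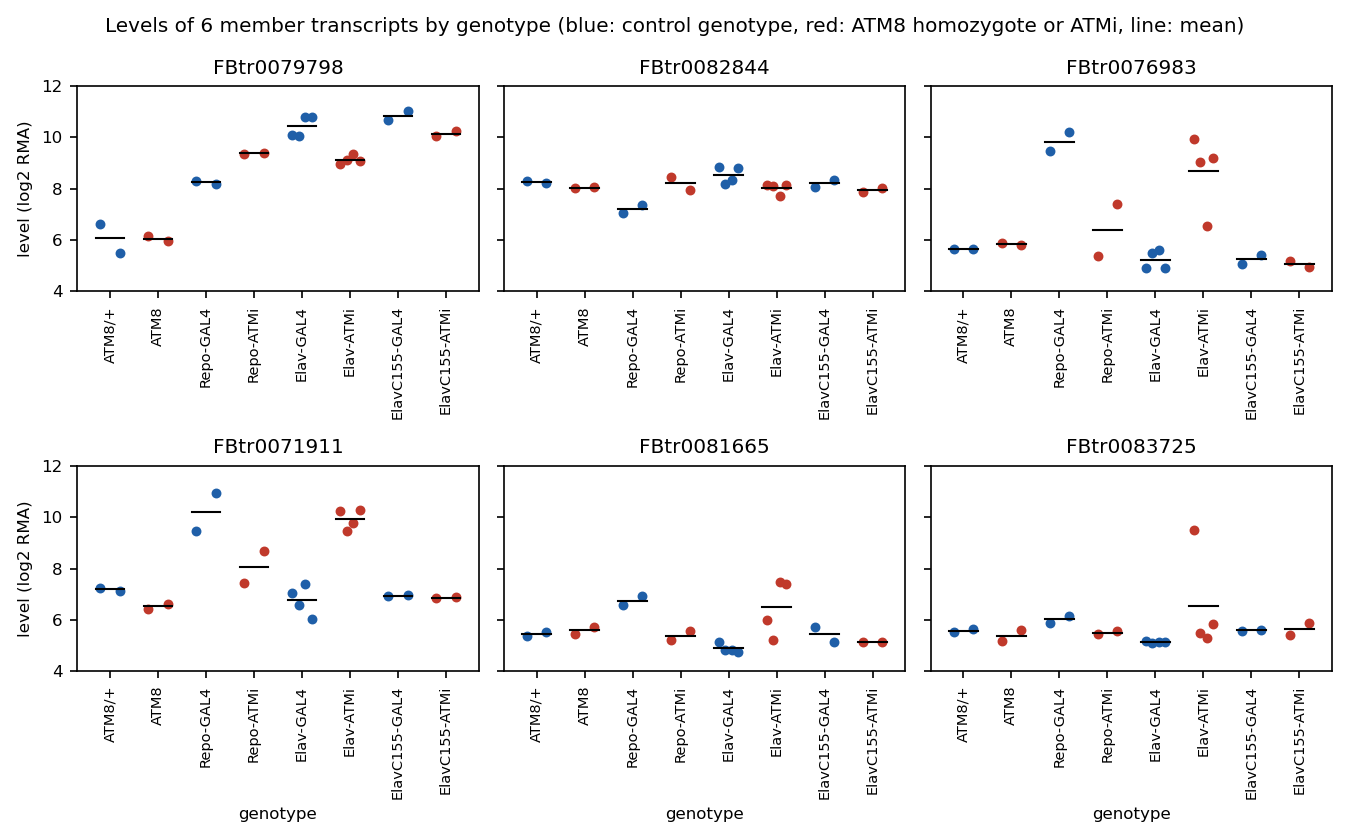
Level (log2 RMA, vertical axis) of 6 transcripts in each genotype (horizontal axis); points are arrays and lines the means, with control genotypes in blue and ATM8 homozygotes and ATMi genotypes in red. FBtr0079798 and FBtr0082844 were higher with Repo-ATMi and lower with Elav-ATMi; the 4 others show different arrangements of the Elav-ATMi arrays, from 4 high arrays (FBtr0071911) to 1 (FBtr0083725).

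The 22 transcripts of this direction not among the 12 with the widest differences had Repo differences of -1.58 to -0.52 (median -0.85) and Elav differences of 0.56 to 2.55 (median 1.31). Over all 34, the gap between the nearest arrays of the 2 genotypes was 0.03 to 2.45 in the Repo comparison (median 0.55) and 0.04 to 2.06 in the Elav comparison (median 0.23). It was under 0.25 for 8 transcripts in the Repo comparison and for 18 in the Elav comparison. The rule required arrays not to overlap, so these gaps describe the members and are not set against all transcripts. The members nearest the threshold were FBtr0089584 (Repo -0.52, Elav 0.67) and FBtr0083725 (-0.53 and 1.39). Just outside it lay FBtr0073806 (-0.44 and 1.72) and FBtr0074436 (-0.42 and 1.11). A further 4 transcripts were kept out by the ATM8 condition alone. These were FBtr0074222 (Repo -1.41, Elav 1.86, ATM8 0.74), FBtr0075363 (-1.50, 1.13 and 0.79), FBtr0076613 (-1.43, 1.29 and 0.62) and FBtr0075497 (-0.59, 0.57 and 0.92).

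In limma, fitted over all 20 arrays and adjusted over all transcripts by the Benjamini-Hochberg method, 29 of the 34 were called higher with Elav-ATMi at an adjusted p under 0.05 (against 1.01% of all transcripts). The number called lower with Repo-ATMi was 9 (against 1.34% of all). In either direction, 11 of the 36 members were called in the Repo comparison (against 4.25% of all transcripts) and 30 in the Elav comparison (against 1.62% of all). Of the 34, both calls were made for 8, against 0.439% of all transcripts with a call in both comparisons, and neither for 4. These counts follow from the way the members were chosen and are given as a description.

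The opposite arrangement was found in 2 transcripts. FBtr0079798 measured 8.31 and 8.19 in Repo-GAL4 and 9.35 and 9.40 in Repo-ATMi. In Elav-GAL4 it measured 10.10, 10.07, 10.78 and 10.81, and in Elav-ATMi 8.97, 9.12, 9.35 and 9.08. The groups did not overlap, with gaps of 1.04 and 0.72 between the nearest arrays, and the 2 ATMi genotypes were close to each other (9.38 ± 0.04, n = 2, and 9.13 ± 0.16, n = 4, SD) while their controls were 2.19 apart. It measured 10.67 and 11.02 in ElavC155-GAL4 and 10.06 and 10.23 in ElavC155-ATMi. In the other background it was far lower, at 6.61 and 5.51 in ATM8/+ and 6.15 and 5.96 in ATM8. Its control levels thus ran from ATM8/+ (6.06 ± 0.78, n = 2) through Repo-GAL4 (8.25 ± 0.08, n = 2) to Elav-GAL4 (10.44 ± 0.41, n = 4) and ElavC155-GAL4 (10.85 ± 0.25, n = 2), and the 2 highest overlapped.

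FBtr0082844 measured 7.07 and 7.38 in Repo-GAL4 and 8.45 and 7.96 in Repo-ATMi. In Elav-GAL4 it measured 8.84, 8.19, 8.33 and 8.81, and in Elav-ATMi 8.14, 8.10, 7.72 and 8.13. The nearest Elav arrays were 0.05 apart, and the Elav difference of -0.52 was just past the threshold. Among the controls Repo-GAL4 was the lowest, at 7.22 ± 0.22, while ATM8/+ (8.25 ± 0.04), ElavC155-GAL4 (8.20 ± 0.18) and Elav-GAL4 (8.54 ± 0.33) overlapped in their arrays. Just outside the threshold lay FBtr0072488 (Repo 0.51, Elav -0.46) and FBtr0077895 (1.22 and -0.46). In limma, both members were called higher with Repo-ATMi (2 of 2, against 2.91% of all transcripts) and 1, FBtr0079798, lower with Elav-ATMi (against 0.608% of all). The number of transcripts in this direction varied when single arrays were left out, which also eases the non-overlap condition. It was 4 without Repo-ATMi replicate 2, 5, 6, 4 and 6 without Elav-ATMi replicates 1, 2, 3 and 4, and 6, 7 and 4 without Elav-GAL4 replicates 1, 2 and 3. FBtr0082844 no longer met the rule without Elav-ATMi replicate 3, Elav-GAL4 replicate 1 or Elav-GAL4 replicate 4, the last of which left the count at 2. FBtr0079798 met it with each of these arrays left out and with the threshold raised to 1.

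The ElavC155 comparison is the measurement in which the members were not chosen, and it uses a second neuronal driver with the same transgene. In limma (2 samples against 2, two-sided, Benjamini-Hochberg over all transcripts) 0 of the 36 members passed an adjusted p of 0.05. Of all transcripts, 0.504% did (0.33% higher and 0.174% lower). At so low a share, most lists of 36 transcripts would hold 0 calls, so this count does not set the members apart. At an unadjusted p under 0.05 there were 3 of the 34 and 1 of the 2, against 6.32% of all transcripts.

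Of the 34 transcripts that were higher with Elav-ATMi, 17 had a difference above 0 with ElavC155-ATMi and 17 below 0, where 51.3% of all transcripts were above 0 and 48.7% below. The median difference was 0.02 and the range -0.36 to 1.15, against a median of 0.01 over all transcripts. ElavC155-ATMi arrays lay above both ElavC155-GAL4 arrays for 11 of the 34, against 19.3% of all transcripts, and below both for 7, against 20.7%. A difference of at least 0.5 was measured for 4 of the 34 (11.8%), against 3.61% of all transcripts. Among the 17 members that also met the rule with its threshold raised to 1, 29.4% had a difference above 0.

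In the 7 transcripts with the widest Elav differences, the ElavC155 differences ran from -0.30 (FBtr0083507) to 0.57 (FBtr0083674). FBtr0083674 measured 5.74 and 6.06 in ElavC155-GAL4 and 6.47 and 6.46 in ElavC155-ATMi, so that its arrays did not overlap, with a difference of 0.57 ± 0.34 (SE, limma adjusted p = 0.99, 95% interval -0.15 to 1.28). FBtr0081954 had 0.09 ± 0.91 and FBtr0078859 had 0.05 ± 0.56. FBtr0076983 had a difference of -0.18 ± 0.78 (SE, limma adjusted p = 1, 95% interval -1.83 to 1.47). FBtr0071911 measured 6.92 and 6.97 in ElavC155-GAL4 and 6.85 and 6.88 in ElavC155-ATMi, a difference of -0.08 ± 0.47 (limma adjusted p = 1, interval -1.08 to 0.92). FBtr0071912 had a difference of -0.25 ± 0.44 (interval -1.19 to 0.69). Both signs thus occurred among the 7. The limma error of such transcripts includes the wide spread of their Elav-ATMi and Repo-GAL4 arrays. The upper bound of the 95% interval was under 1 log2 unit for 19 of the 34 and under 2 for 32. These counts describe the members only and are not set here against all transcripts. The limma SE of FBtr0071911 was 0.47, while its SDs were 0.03 in ElavC155-GAL4 and 0.02 in ElavC155-ATMi. For FBtr0076729 the SE was 0.20, with SDs of 0.18 and 0.08 in the same order. Changes of 1 and 2 log2 units in the ElavC155 comparison were simulated over all transcripts as a check of the procedure, and their recovery is not given here. Which size of difference could be detected for the members with 2 arrays a genotype was not tested. Whether the ElavC155 and Elav differences are unequal was not tested either, because the Elav values chose the members.

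The members with an unadjusted limma p under 0.05 in the ElavC155 comparison shared the sign of the Elav comparison. FBtr0085956 had a difference of 1.15 ± 0.53 (limma adjusted p = 0.78, interval 0.01 to 2.28), with both ElavC155-ATMi arrays above both controls. FBtr0100320, the brightest member, measured 11.60 and 11.13 in ElavC155-GAL4 and 11.83 and 12.02 in ElavC155-ATMi, a difference of 0.56 ± 0.22 (limma adjusted p = 0.58). FBtr0076729 had 0.48 ± 0.20 (limma adjusted p = 0.62). FBtr0079798, of the opposite arrangement, had -0.70 ± 0.30 (limma adjusted p = 0.70, interval -1.34 to -0.06), and FBtr0082844 had -0.24 ± 0.22 (limma adjusted p = 1). In both of the last transcripts the ElavC155-ATMi arrays lay below both controls (2 of 2, where 20.7% of all transcripts did), and none of these 5 differences passed the adjusted test. FBtr0100320 and FBtr0076729 were named for their unadjusted p after the values were seen.

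**Figure D5:**
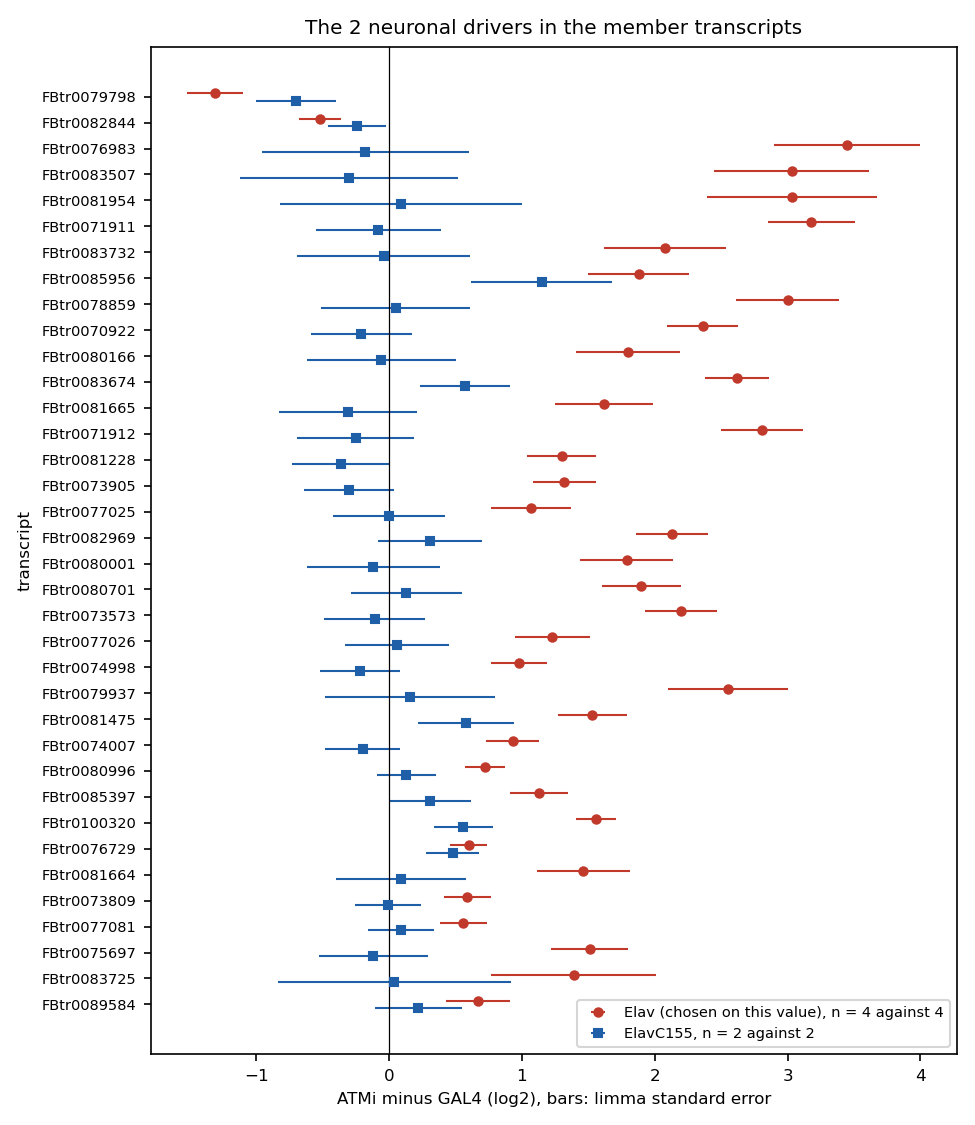
Difference between ATMi and GAL4 flies (log2, horizontal axis) for each of the 36 members (vertical axis) with the Elav driver (red circles, n = 4 against 4, on which the members were chosen) and the ElavC155 driver (blue squares, n = 2 against 2); bars are limma standard errors. The red points of the lower 34 rows lie between 0.56 and 3.45, and the blue ones between -0.36 and 1.15.

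In ATM8 homozygotes the difference from heterozygotes had a median of -0.02 over the 34 transcripts and a range of -0.96 to 0.45, its upper end limited by the rule. The arrays of the homozygotes lay above those of the heterozygotes for 6 (against 22.9% of all transcripts) and below for 6 (against 20.5% of all). The difference was below 0 for 18 (against 49.4% of all transcripts) and above 0 for 16 (against 50.6% of all). It was at least 0.5 in size for 3 (against 10.4% of all transcripts), at least 0.5 higher for 0 (against 5.71% of all) and at least 0.5 lower for 3 (against 4.71% of all). These were FBtr0085397 (-0.96), FBtr0071911 (-0.66) and FBtr0085956 (-0.54), the first of them named for this value after it was seen. The 2 transcripts of the opposite arrangement differed by -0.01 (FBtr0079798) and -0.21 (FBtr0082844).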

How the data were processed

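Head RNA of 8 genotypes was measured on 20 NimbleGen arrays. The deposited values are log2 levels per transcript made by the authors with RMA, which corrects background, normalizes between arrays and summarizes probes, per the submitters' processing notes; for its version, probe filter and annotation release the sources used here give nothing, and the log2 scale was read from the values. The table holds 15473 transcripts with 0 missing values, and 0 arrays repeat another. Samples were grouped by title. The members and the gene lists were chosen with earlier results of these data known. Each transcript was tested with limma 3.58.1 (R 4.3.3; lmFit, eBayes, 12 residual and 3.79 prior degrees of freedom, 1 mean per genotype, two-sided), called at a Benjamini-Hochberg adjusted p under 0.05 over all transcripts. The procedure was tested on simulated data. Replicates are labelled biological, with no word on separate cultures; the p-values cover only sample-to-sample spread, which may be technical.

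Transcripts were described singly by this rule: in each direction the 12 with the largest smaller difference (Repo or Elav), any called with ElavC155 and any tied to a gene. Those chosen after their values were seen are marked. Alternatives were other thresholds, quantile or median normalization, omission of dim transcripts, array weights, trended and robust variances, a replicate block and omission of single arrays. Deviations of same-numbered Elav arrays correlated at 0.119 to 0.243, above the criterion of 0.1 in every pair. Arrays with different numbers were not compared, so whether the numbers pair the samples is not settled. Deviations of same-numbered ElavC155 arrays correlated at 0.509, with only 2 pairs and no label for a shared origin. The SEs, intervals and p-values of single transcripts come from the fit without the replicate block. With the block, the limma adjusted p in the ElavC155 comparison was 0.34 for FBtr0085956 (0.78 without) and 0.32 for FBtr0079798 (0.7 without).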

Additional observations from a re-analysis of the deposited data

Results flagged for a closer look

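The 36 members form 72 groups of 4 arrays in Elav-GAL4 and Elav-ATMi. In 7 of these groups, 1 array stood apart by Dixon's criterion. Chance alone meets it in about 1 group in 20 where groups are unselected and independent. The Elav values chose the members and the groups share arrays, so that rate does not apply here. The 7 are a description, and no excess is read from them. In Elav-ATMi, FBtr0083507 measured 5.99 in replicate 3 against 9.44 to 9.66 in the others, FBtr0083725 measured 9.49 in replicate 1 against 5.29 to 5.82, and FBtr0082844 measured 7.72 in replicate 3 against 8.10 to 8.14. In Elav-GAL4, FBtr0078859 measured 6.49 in replicate 3 against 4.95 to 5.03, and FBtr0080001 measured 6.23 in replicate 2 against 6.71 to 6.81. Replicate 4 of Elav-GAL4 was the low one for FBtr0073809 (7.91 against 8.31 to 8.34) and for FBtr0085397 (7.60 against 8.47 to 8.63).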

How the results depend on the processing

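The number of transcripts lower with Repo-ATMi and higher with Elav-ATMi was 34. It was 17 with a threshold of 1 on the differences, 8 of the 34 once the dimmest 25% of transcripts was left out, and 83 when arrays were allowed to overlap. It ran from 26 to 51 with 1 array left out, and was 35 after quantile normalization (32 of the 34 kept). The number in the opposite arrangement was 2. It became 7 at a threshold of 0.4, 1 at 0.75, 1 at 1 and 9 with overlap allowed, and ran from 2 to 7 with 1 array left out. In the ElavC155 comparison the count of limma calls among the members was 0 under all alternatives run, the replicate block included. The share of the 34 above 0 there was 50%, 52.9% to 61.8% with 1 array left out, and 29.4% at a threshold of 1. With 1 array left out the ElavC155 difference spanned -0.08 to 0.01 for FBtr0083732, -0.45 to 0.03 for FBtr0070922 and -0.12 to 0.00 for FBtr0080166. With the replicate block, 13 of the 36 members were called in the Repo comparison in place of 11, and 29 in the Elav comparison in place of 30. Crossing the 2 Repo pairs, tried after their correlation of -0.14 was seen, gave 11. By construction, a stricter threshold or fewer transcripts cannot raise a count, and a threshold of 0.4 or allowed overlap cannot lower it. The drop to 8 reflects that most of the 34 lay among the dimmest 25% of transcripts, while the opposite arrangement stayed at 2 there. Leaving out an array eases the non-overlap condition and also shifts a group mean. The cause of the other shifts was not tested. Dim levels without a detection flag and 2 arrays a genotype limit what can be seen.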
